A study of Mus musculus with 12 samples.

Results

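Choroid plexus RNA varied widely among 12 RNA-seq libraries of mouse ventral hippocampal area CA1 (vCA1), and 8 of the 12 are compared here for it. The 8 were chosen on their level of Ttr: Control 2, STET 2, STET_S100 1 and STET_S100 2 were the 4 richest, and STET_S100 3, STET_S200 1, STET_S200 2 and STET_S200 3 the 4 poorest. The remaining 4 libraries (Control 1, Control 3, STET 1 and STET 3) lay between them in Ttr, which the choice of the extremes fixed in advance. They served to describe whether other genes were graded, and genes that vary with Ttr are not independent of that choice. The order among these 4 libraries was not fixed by it.

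The study recorded from acute horizontal brain slices of wild-type male C57BL/6J mice aged 5 to 7 weeks, with 3 libraries in each of 4 groups. STET_S200 slices received strong tetanization (STET, a tetanus that induces late long-term potentiation) together with 200 Hz stimulation of the basolateral amygdala, although the same label also gives the amygdala pulses as 100 pulses at 100 Hz. STET_S100 slices received STET with 100 Hz amygdala stimulation, STET slices received STET alone as 3 trains of 100 pulses at 100 Hz, and Control slices carried electrodes but had basal stimulation alone. Slices 400 µm thick were frozen 30 min after stimulation, an area of 1 mm2 around the vCA1 electrodes was cut from each, and 6 slices from individual mice were pooled into each library. Each mouse gave 4 slices, 1 to each group, and which libraries shared mice is not stated. Of the 4 rich libraries, 3 (Control 2, STET 2 and STET_S100 2) carry replicate number 2, and STET_S200 2, with the same number, was poor.

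The choroid plexus is a fringe of epithelium over a vascular stroma that hangs into the brain ventricles and secretes cerebrospinal fluid. Its epithelial cells are sealed by tight junctions, pump ions and bicarbonate at their ventricular face, and export transthyretin, the carrier of thyroid hormone and retinol-binding protein encoded by Ttr. The ependyma is the neighbouring ventricular lining, a single layer of cells with many motile cilia, and both tissues lie along the temporal horn of the lateral ventricle, which borders the ventral hippocampus. In pooled tissue, a lower content of these cells and less RNA per cell cannot be told apart.

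The libraries held between 36.3 and 52.8 M counts, the rich set from 37.2 to 49.8 M and the poor set from 36.8 to 49.0 M. Levels are given as count-per-million values (CPM) after TMM scaling, and a ratio is the log2 ratio of the rich to the poor median after adding 0.1 CPM. The sets were picked on Ttr, so rich against poor is described without a test. A gene was called higher when all 4 rich libraries lay above all 4 poor libraries and the ratio was at least 1, which is 2-fold. Of 19492 genes that passed the filter on low counts, 196 were higher by this rule (1.01%) and 2 were lower (0.0103%). Irrespective of size, 923 genes (4.74%) had all rich libraries above all poor libraries and 795 (4.08%) had all below.

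All 8 markers of choroid plexus epithelium separated the sets, each by at least 3.69 on the log2 scale. Ttr reached 1170 CPM in Control 2 and 2240 CPM in STET 2, with 1840 CPM in STET_S100 1 and 2800 CPM in STET_S100 2, against 12.2 CPM in STET_S100 3, 5.14 in STET_S200 1, 1.73 in STET_S200 2 and 40.6 in STET_S200 3. The ratio was 7.86, or 233-fold. It was 8.61 without STET_S100 3 or without STET_S200 3, and 7.07 as a ratio of means. The middle libraries had 233 CPM in Control 1, 183 in Control 3, 254 in STET 1 and 434 in STET 3, so the highest poor library and the lowest middle library were 40.6 and 183 CPM, and the highest middle library and the lowest rich library were 434 and 1170 CPM. Of all counts, Ttr took 0.115 to 0.284% in the rich libraries and 0.000174 to 0.00404% in the poor ones.

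The channels and transporters among the markers separated the sets by ratios of 3.69 to 6.33. Clic6, a chloride channel protein, had 30.1, 47.6, 45.7 and 68.7 CPM in Control 2, STET 2, STET_S100 1 and STET_S100 2, against 0.785, 0.190, 0.200 and 0.765 CPM in STET_S100 3 and STET_S200 1, 2 and 3 (ratio 6.33). Kcnj13, an inward-rectifier potassium channel of the apical membrane, had 8.48, 16.0, 16.7 and 22.1 CPM in the rich libraries, against 0.186, 0.0951, 0 and 0.191 CPM in the poor libraries in the same order (6.09). Only 20 reads of Kcnj13 were counted in the 4 poor libraries together. Slc4a5, a sodium bicarbonate cotransporter, had 12.4, 14.4, 14.7 and 22.9 CPM in the rich libraries, against 0.331, 0.0713, 0 and 0.355 CPM in the poor ones (5.61). Aqp1, the water channel of the apical membrane, had 11.1, 15, 14.1 and 21.4 CPM in the rich libraries, against 0.806, 0.690, 1.27 and 1.34 CPM in the poor ones (3.69). Without STET_S100 3 or without STET_S200 3, the ratio was 7.28 for Clic6 and 6.42 for Slc4a5. In these 4 genes STET_S100 2 was the highest library and Control 2 the lowest of the rich set.

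The receptor, hormone and transcription factor markers separated the sets as well. Folr1, the folate receptor that carries folate into cerebrospinal fluid, had 10.7, 17.6, 16.1 and 20.5 CPM in the rich libraries, against 0.331, 0.309, 0.155 and 0.793 CPM in the poor ones (ratio 5.34). Otx2, a homeodomain factor needed for choroid plexus development and upkeep, had 3.55, 4.42, 3.45 and 4.55 CPM in the rich libraries, against 0.0413, 0.0713, 0 and 0.0547 CPM in the poor ones (4.79), where 7 reads were counted in all. Kl encodes klotho, an anti-ageing protein and coreceptor for fibroblast growth factor 23. It had 55.9, 80.9, 77.5 and 107 CPM in the rich libraries, against 5.72, 5.73, 3.51 and 7.60 CPM in the poor ones (3.77). Kl had at least 3.51 CPM in every poor library and Aqp1 at least 0.690 CPM, whereas Otx2, Kcnj13 and Slc4a5 were at 0 in STET_S200 2.

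**Figure D1:**
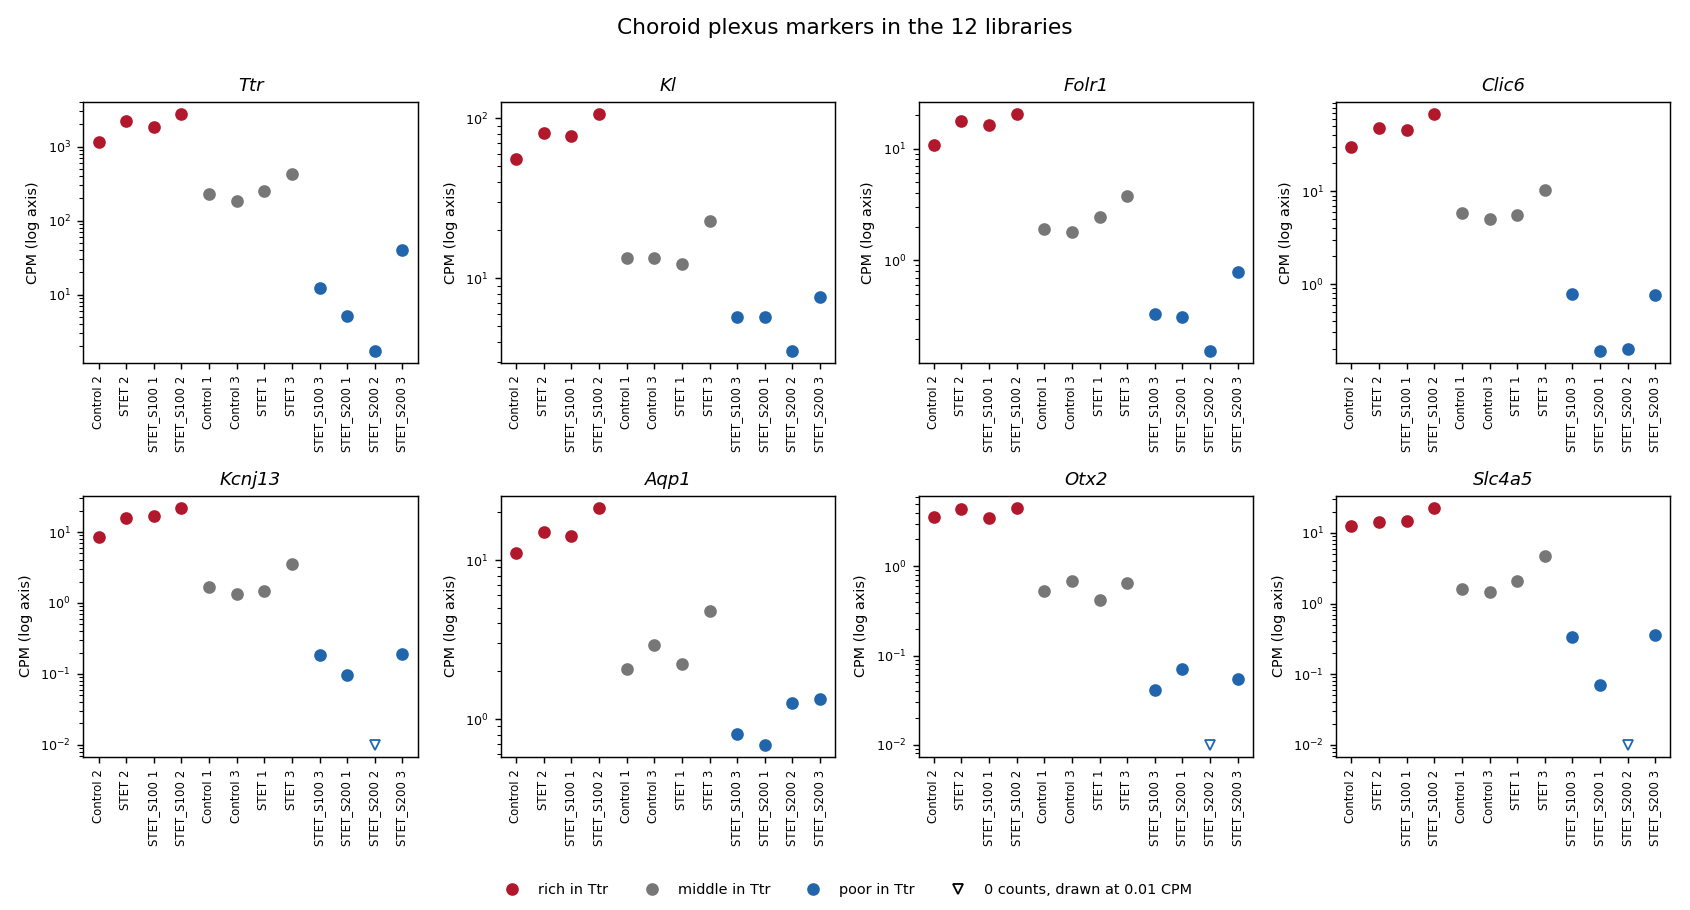
CPM on log axes of the 8 choroid plexus markers in each of the 12 libraries, with rich libraries left, middle libraries in the centre and poor libraries right; an open triangle marks a library with 0 counts. For every marker the 4 middle libraries sit between the sets, and for Ttr they span 183 to 434 CPM.

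Slices that received the same stimulation stood in both sets, since STET_S100 1 and 2 were rich and STET_S100 3 was poor. The markers had a median log2 ratio of 5.44 within that group and of 5.47 over all 8 libraries. The 3 libraries were placed in their sets by Ttr and belong to the 8, so the first value is a description and no separate support for the second. It rests on 1 poor library.

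Relative to Ttr, several markers stood in a narrow proportion in the rich and middle libraries. Folr1 had 7.34 to 9.16 reads per 1000 Ttr reads in the rich libraries, 8.19 to 9.88 in the middle ones and 19.5 to 89.7 in the poor ones. Clic6 had 21.2 to 25.8 reads per 1000 Ttr reads in the rich, 21.7 to 27.5 in the middle and 18.8 to 115 in the poor libraries. Kcnj13 had 7.11 to 9.05 in the rich, 5.70 to 8.26 in the middle and 0 to 18.5 in the poor libraries. The ranges in the poor libraries were wider for each of the 7 markers set against Ttr. Slc4a5 had 6.43 to 10.6 in the rich, 6.89 to 10.8 in the middle and 0 to 27.1 in the poor libraries. Otx2 had 1.63 to 3.04 in the rich, 1.5 to 3.74 in the middle and 0 to 13.9 in the poor libraries. Kl had 36.1 to 47.9 per 1000 Ttr reads in the rich libraries, 48.4 to 72.9 in the middle ones and 187 to 2030 in the poor ones. Aqp1 had 6.70 to 9.53 in the rich libraries, 8.74 to 16.0 in the middle ones and 33.0 to 731 in the poor ones. In the poor libraries, Ttr itself rested on 78 to 1486 reads.

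Genes of ion, water and solute transport followed, with 17 of 18 genes that passed the filter higher in all rich libraries and 13 of 18 at least 2-fold higher. Of all genes tested, 4.74% were higher in all rich libraries and 1.01% were at least 2-fold higher. The list had a median ratio of 1.44, where all genes tested had -0.01. Kcne2, a potassium channel subunit of the apical membrane, had 5.97, 11.1, 7.85 and 14.3 CPM in Control 2, STET 2, STET_S100 1 and STET_S100 2, against 0.269, 0.262, 0.0444 and 0.164 CPM in STET_S100 3 and STET_S200 1, 2 and 3 (4.93). Slc13a4, a sulfate transporter, had 11.7 to 19.1 CPM in the rich libraries, against 0.733 to 0.971 CPM in the poor ones (3.80). Slc16a8, a lactate transporter, had 1.55 to 4.62 CPM in the rich libraries, against 0.103 to 0.191 CPM in the poor ones (3.58). Steap1, a metalloreductase, and Slc39a4, a zinc importer, had ratios of 2.69 and 2.62. Slco1a5, an organic anion transporter, had 0.600 to 1.17 CPM in the rich libraries, against 3 reads in all 4 poor libraries together.

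Secreted proteins, enzymes and receptors formed the list with the most genes past 2-fold. Of its 25 genes, 23 lay higher in all rich libraries and 21 were at least 2-fold higher, against 4.74% and 1.01% of all genes. The median ratio was 2.60. Enpp2 encodes autotaxin, which makes lysophosphatidic acid and is also made by oligodendrocytes. It had 631, 915, 787 and 1100 CPM in Control 2, STET 2, STET_S100 1 and STET_S100 2, against 94.4, 88.4, 78.5 and 108 CPM in STET_S100 3 and STET_S200 1, 2 and 3 (3.22). Its poor libraries lay close together, within 78.5 to 108 CPM, while Ttr in the same libraries ranged from 1.73 to 40.6 CPM. Tmem72, a membrane protein, had 16.4 to 25.4 CPM in the rich libraries, against 0.0666 to 0.248 CPM in the poor ones, a ratio of 6.46 that was second to that of Ttr among genes with a mean log2 level of at least 0. F5, coagulation factor V, had 24.0 to 52.7 CPM in the rich libraries, against 0.642 to 1.23 CPM in the poor ones (4.86).

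Further members of that list were Mfrp, a frizzled-related membrane protein, with a ratio of 4.75, and Col8a1, a short-chain collagen, with 4.74. Wdr86 had 3.06 to 7.64 CPM in the rich libraries, against 0 to 0.124 CPM and 8 reads in the poor ones (5.32). Calml4, a calmodulin-like protein, had 3.28, and Sostdc1, a secreted antagonist of BMP and Wnt signals, had 3.13. Of the list's 25 genes, 2 overlapped between the sets; 1 of them, Cp, the ferroxidase ceruloplasmin, named after its values were seen, had 14.7 to 16.1 CPM in the rich libraries, against 12.6 to 16.9 CPM in the poor ones.

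Epithelial junctions and keratins were higher too, by a median ratio of 1.71. Of 12 genes, 9 were higher in all rich libraries and 7 at least 2-fold higher, against 4.74% and 1.01% of all genes. Cldn2, a claudin that forms cation-permeable and water-permeable tight junctions, had 7.06, 10.5, 10.2 and 12.5 CPM in Control 2, STET 2, STET_S100 1 and STET_S100 2, against 0.145, 0.0238, 0.155 and 0.273 CPM in STET_S100 3 and STET_S200 1, 2 and 3 (5.39). Krt18 and Krt8, the keratin pair of simple epithelia, had ratios of 3.82 and 2.23. Krt8 had 1.28 CPM in Control 2 and 3.69 to 5.58 CPM in the other rich libraries. Cldn1, another claudin, had 9.14 to 19.0 CPM in the rich libraries, against 1.40 to 2.17 CPM in the poor ones (2.62). Baiap2l1 and Epn3, adaptors of membrane curvature and endocytosis, had ratios of 2.62 and 2.47.

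**Figure D2:**
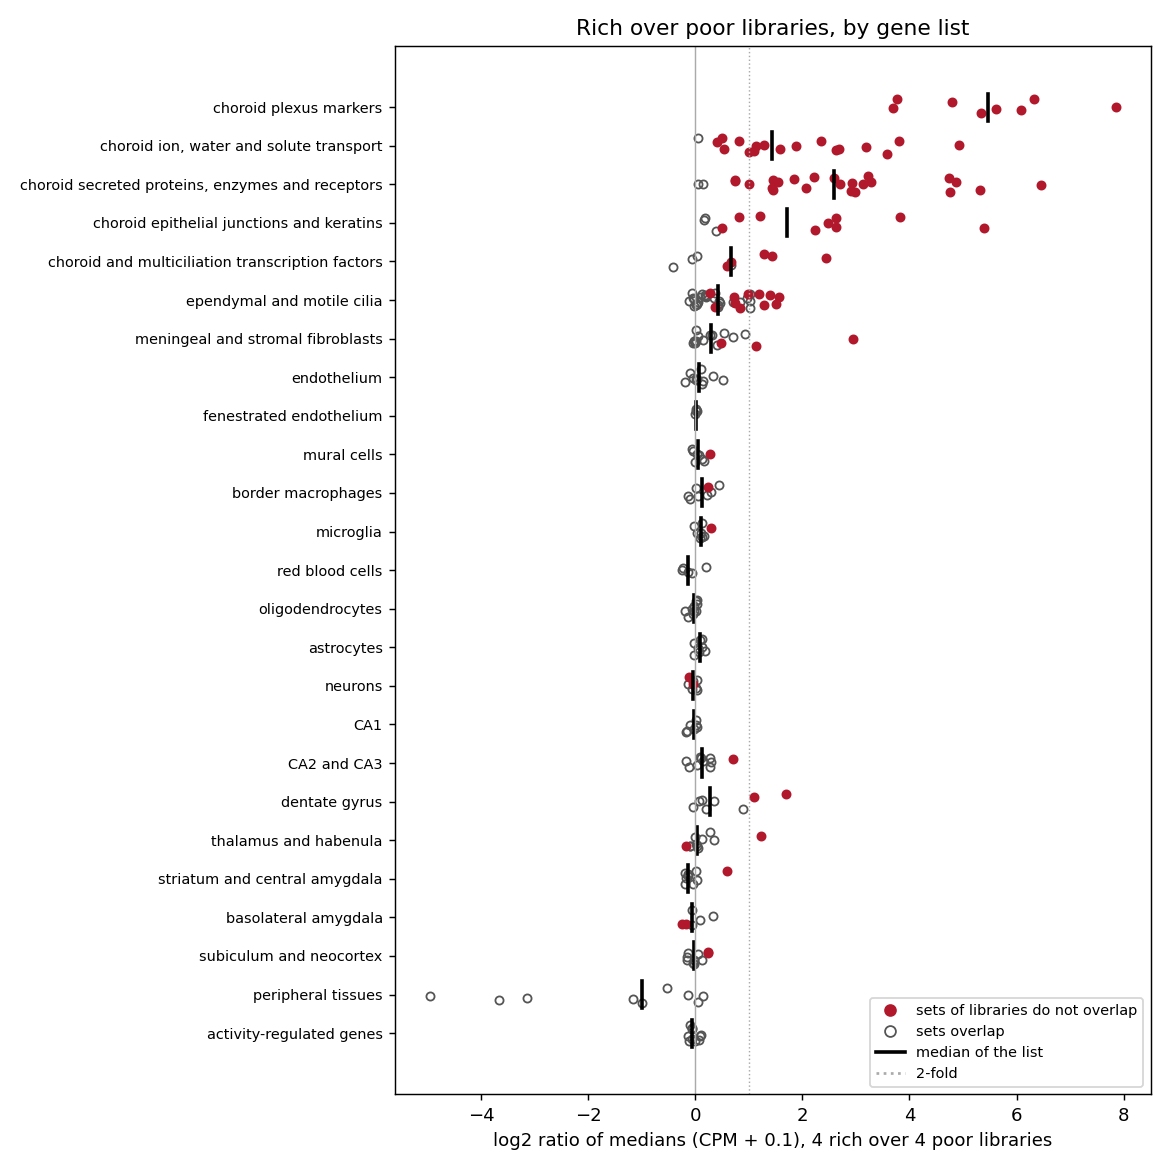
Log2 ratio of medians (CPM + 0.1) of the rich over the poor libraries for each gene that passed the filter, by gene list; filled points are genes whose sets of 4 libraries do not overlap, open points overlap, and the bar is the list's median. The choroid lists extend to 7.86, while endothelium, neurons and CA1 lie close to 0.

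Of the 196 genes at least 2-fold higher, 52 stood in the 5 choroid lists, 10 in other lists and 134 in no list. A mean log2 level of at least 0 was reached by 99 of them, and 97 lay under it. Added up, the differences between rich and poor medians came to 3740 CPM, or 0.374% of a library. Ttr made up 54.3% of that sum and Enpp2 20.3%, and with Kl the first 3 genes made up 76.5%. Per kilobase of exon, the differences were 1710 CPM for Ttr, 131 for Enpp2, 26.4 for 1500015O10Rik, 24.9 for Igfbp2, an insulin-like growth factor binding protein named after its values were seen, and 12.7 for Kcnj13. Lengths of the GENCODE M21 annotation were found for 195 of the 196 genes.

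Among genes with a mean log2 level of at least 0, 2 genes outside the lists ranked within the 20 highest ratios. 1500015O10Rik, named Ecrg4 in RefSeq and encoding a secreted peptide precursor, had 11.6, 27.3, 21.2 and 31.5 CPM in Control 2, STET 2, STET_S100 1 and STET_S100 2, against 0.227, 0.476, 0.444 and 0.957 CPM in STET_S100 3 and STET_S200 1, 2 and 3 (5.44). Abca4, a lipid transporter best known in photoreceptors, had 10.6 to 18.4 CPM in the rich libraries, against 0.856 to 1.53 CPM in the poor ones (3.51). In the middle libraries both were intermediate, at 2.57 to 5.27 CPM for 1500015O10Rik and 2.42 to 5.16 CPM for Abca4.

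Although 795 genes lay lower in all rich libraries, few of them were 2-fold lower. The 2 that were, Gm22581 and Ighg2c, rested on 16 and 12 reads in the rich libraries and on 44 and 39 reads in the poor ones. The number of such genes was 10 without STET_S100 1, 4 without STET_S200 3 and 12 without the 3 libraries above 1 CPM of Fabp4. Among genes with a mean log2 level of at least 0, the 10 lowest ratios ranged from -0.69 for Gm44570 to -0.50 for 4932702P03Rik. Selp, the endothelial adhesion molecule P-selectin, had 2.23 to 2.73 CPM in the rich libraries, against 2.95 to 3.89 CPM in the poor ones (-0.56), and its middle libraries ranged wider, from 0.847 to 6.07 CPM. The others were Henmt1 (-0.56), Cdc25c (-0.56), Rad21l (-0.54), Vax1 (-0.51), Gm12265, Gm17122 and Ddx4 (-0.50 each).

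In the 4 middle libraries, which the choice placed between the sets in Ttr, the choroid genes were mostly intermediate. On a scale where the poor median is 0% and the rich median 100%, the 52 choroid-list genes had a median level of 21.6% in STET 3 (interquartile range 17.5 to 27.6%), 12.3% in Control 1 (9.79 to 15.9%), 11.3% in Control 3 (8.49 to 15.9%) and 9.45% in STET 1 (6.69 to 14.0%). The same genes varied within the rich set, where Control 2 had a median of 65.1%, STET 2 of 102%, STET_S100 1 of 97.8% and STET_S100 2 of 137%. STET 3, which had the most Ttr of the middle libraries, was the highest of the 4 for 38 of the 52 genes (73.1%) and for 112 of all 196 (57.1%), where 25.6% of all genes tested had STET 3 highest. All 4 middle libraries lay above all 4 poor ones for 40 of the 52 (76.9%). The share was 36.7% of all 196 and 22.4% of the 134 in no list, which were chosen by the same rule. It was 1.93% of all genes tested, which is no like baseline, since the 196 were chosen with their poor libraries below the rich ones.

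Below STET 3 the order was less regular. The full order of Ttr, with STET 3 above STET 1, Control 1 and Control 3, was shared by 7 of the 52 genes (13.5%) and by 14 of the 196 (7.14%), Ttr itself included, against 4.80% of all genes tested. The interquartile ranges of the 52 genes in Control 1, Control 3 and STET 1 overlapped. The order is described without a test. Of the 134 genes in no list, 46 had a mean log2 level of at least 0, a limit not set for the 52. On the same scale, these 46 had medians of 27.5% in STET 3, 13.8% in Control 1, 12.8% in Control 3 and 9.59% in STET 1.

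**Figure D3:**
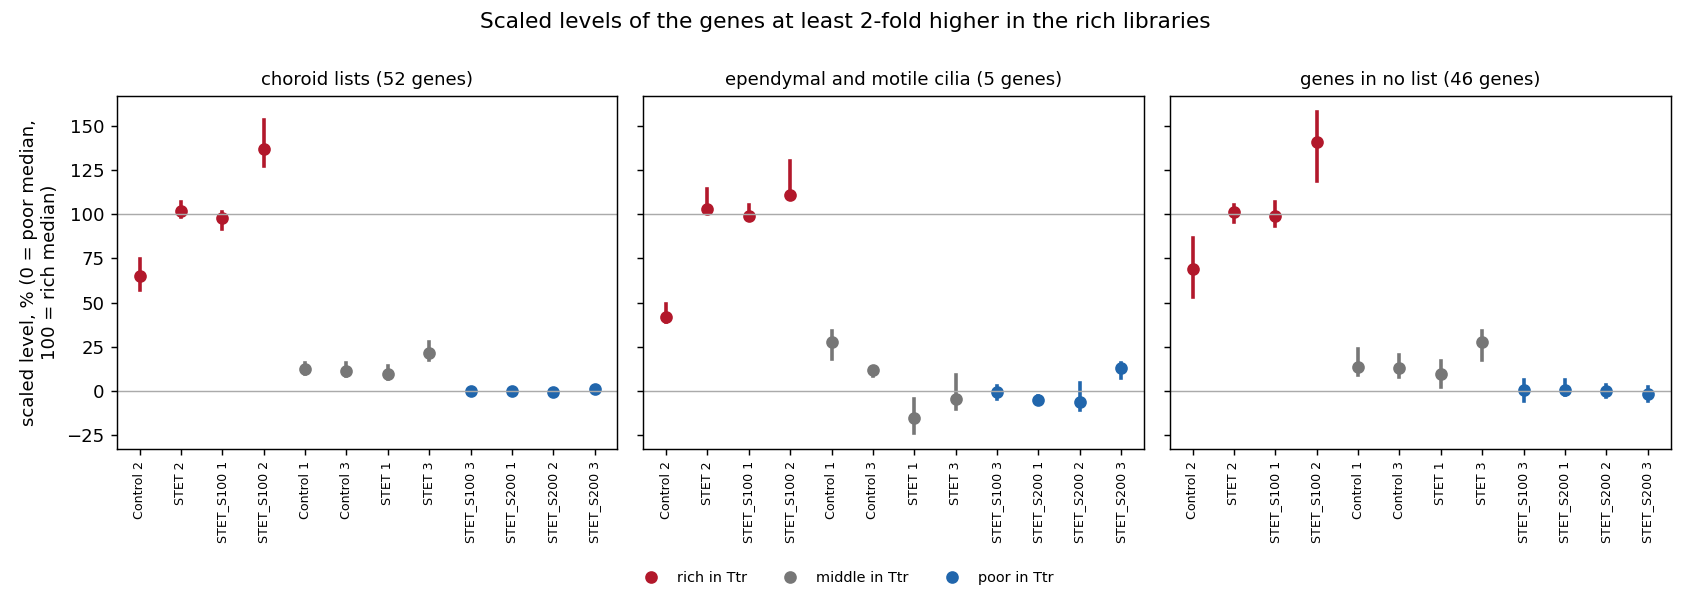
Scaled level in each library (0% is the median of the poor libraries and 100% that of the rich) of the genes at least 2-fold higher in the rich libraries, as median (point) and interquartile range (line) over genes, for choroid lists, ependymal and motile cilia genes, and unlisted genes with a mean log2 level of at least 0. STET 3 is the highest middle library for the choroid genes at 21.6% and lies at -4.47% for the 5 cilia genes.

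Transcription factors of choroid and multiciliated cells were higher in part, with ratios from -0.41 to 2.45. Their summed level overlapped between the sets, at 135 to 165 CPM in the rich libraries and 99.9 to 145 CPM in the poor ones. Of 9 that passed the filter out of 10, 5 were higher in all rich libraries and 3 were at least 2-fold higher. The shares of all genes were 4.74% and 1.01%. Lmx1a, a factor of the roof plate and the choroid plexus, had 0.436, 1.60, 1.06 and 1.75 CPM in Control 2, STET 2, STET_S100 1 and STET_S100 2, against 0.145, 0.190, 0.178 and 0.0273 CPM in STET_S100 3 and STET_S200 1, 2 and 3 (2.45). Msx1, a homeodomain factor, had a ratio of 1.44. Gmnc, which starts the multiciliated programme, had 2.13 to 2.32 CPM in the rich libraries, against 0.383 to 1.14 CPM in the poor ones (1.28). Its highest rich library was Control 2, the lowest of that set for Ttr. Msx2 (0.66) overlapped. Foxj1, the master factor of motile cilia, had 12.8 to 19.6 CPM in the rich libraries, against 10.2 to 11.6 CPM in the poor ones (0.59), and Trp73 had 0.66.

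Ependymal and motile cilia genes were higher in part, by a median ratio of 0.42. Their summed level overlapped between the sets. It was 171 CPM in Control 2 and 223 to 230 CPM in the other rich libraries, against 176 to 184 CPM in the poor ones. Of the 36 genes that passed the filter (of 37), 11 were higher in all rich libraries, where 4.74% of all genes were, and 5 were at least 2-fold higher, where 1.01% of all genes were. None was lower in all rich libraries, where 4.08% of all genes were. Within STET_S100, 33 of the 36 were positive (median 0.46), against 9790 of 19492 genes tested (median 0). This is a description within libraries placed by Ttr, rests on 1 poor library and is no separate support. Spag16, a protein of the central pair of the motile axoneme, had 1.58, 2.36, 2.53 and 3.40 CPM in Control 2, STET 2, STET_S100 1 and STET_S100 2, against 0.868, 0.642, 0.577 and 0.875 CPM in STET_S100 3 and STET_S200 1, 2 and 3 (1.57). Cfap126 (1.5), Cfap52 (1.28), Pifo (1.39) and Dnah11 (1.19), an outer-arm dynein heavy chain, were the others. Dnah6, a further dynein heavy chain, had 3.41 to 7.21 CPM in the rich libraries, against 2.91 to 4.37 CPM in the poor ones, and its sets overlapped.

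Single members of the list had another order of libraries than Ttr, and 3 are given that were named after their values were seen. Ccdc153, an ependymal marker, had 0.682 CPM in Control 2 and 3.69 CPM in STET 2, with 2.63 CPM in STET_S100 1 and 3.04 CPM in STET_S100 2, against 2.05 CPM in STET_S100 3, 2.28 in STET_S200 1, 1.98 in STET_S200 2 and 3.25 in STET_S200 3 (0.37). Control 2 was rich in Ttr and the lowest of all 12 libraries in Ccdc153. Tmem212, another ependymal gene, had 0.218 CPM in Control 2 and 1.34 to 2.29 CPM in the other rich libraries, against 0.844 to 1.28 CPM in the poor ones (0.45). Tmem212 thus lay above all poor libraries in 3 of the 4 rich ones. Rarres2, the chemerin precursor, had a ratio of -0.04.

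In the middle libraries, none of the 36 cilia-list genes was highest in STET 3, against 25.6% of all genes tested, and none had the order of Ttr, against 4.80%. The 5 cilia genes past 2-fold had median scaled levels of 27.9% in Control 1, 11.6% in Control 3, -15.4% in STET 1 and -4.47% in STET 3. Control 1 had 3.40 CPM of Ccdc153 where STET 1 had 0.874 and STET 3 had 1.06.

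The promoters of these genes were read for the letters GTTGCC, a half-site of the X-box. RFX factors, which act with Foxj1 on cilia genes, bind the X-box. The window ran from 250 bases before to 50 after each start in the RefSeq table for GRCm38.p6, and both strands were searched. GTTGCC was found in 12 of 30 cilia-list promoters (40.0%) and in 14 of 57 choroid-list promoters (24.6%), and 14.1% of 27025 promoters in the table held it. TAATCC, a letter string bound by bicoid-type homeodomain factors such as Otx2, was found for 10.5% of the choroid-list genes and 8.14% of all. Promoters are shown of a cilia gene that was higher in the rich libraries (Spag16), of an ependymal gene that was not (Ccdc153) and of a choroid channel gene (Kcnj13). Capitals mark GTTGCC or its reverse complement, and all are written in the direction of the gene.
Spag16 chr1:69826720-69827019, plus strand: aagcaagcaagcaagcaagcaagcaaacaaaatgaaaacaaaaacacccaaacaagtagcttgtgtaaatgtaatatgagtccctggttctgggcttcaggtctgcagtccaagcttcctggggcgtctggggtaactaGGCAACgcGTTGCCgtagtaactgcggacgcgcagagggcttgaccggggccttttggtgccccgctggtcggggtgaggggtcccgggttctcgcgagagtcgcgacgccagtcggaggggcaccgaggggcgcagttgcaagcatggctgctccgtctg
Ccdc153 chr9:44240427-44240726, plus strand: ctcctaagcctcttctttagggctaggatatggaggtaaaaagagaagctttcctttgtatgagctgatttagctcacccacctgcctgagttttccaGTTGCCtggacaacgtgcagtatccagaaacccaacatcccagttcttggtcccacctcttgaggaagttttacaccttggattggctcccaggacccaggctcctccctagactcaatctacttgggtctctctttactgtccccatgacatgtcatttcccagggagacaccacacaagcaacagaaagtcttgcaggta
Kcnj13 chr1:87394680-87394979, minus strand: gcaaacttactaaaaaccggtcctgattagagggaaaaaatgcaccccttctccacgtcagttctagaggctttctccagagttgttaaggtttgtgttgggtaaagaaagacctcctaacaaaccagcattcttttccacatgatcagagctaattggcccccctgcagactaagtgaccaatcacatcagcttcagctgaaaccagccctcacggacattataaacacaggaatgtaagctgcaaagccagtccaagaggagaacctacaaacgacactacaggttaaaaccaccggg
The Spag16 window held 2 matches, with first bases 111 and 103 before the start, on opposite strands, the Ccdc153 window held 1, 152 before the start, and the Kcnj13 window held 0. A match is a string of letters and shows no binding.

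Genes of stroma and vessels mostly overlapped between the sets. Of 16 genes of meningeal and stromal fibroblasts, 3 were higher in all rich libraries and 2 at least 2-fold higher, against 4.74% and 1.01% of all genes. Their median ratio was 0.30. Igf2, an insulin-like growth factor made by leptomeninges and choroid plexus, had 1.77, 2.84, 2.57 and 3.28 CPM in Control 2, STET 2, STET_S100 1 and STET_S100 2, against 0.227, 0.357, 0.155 and 0.301 CPM in STET_S100 3 and STET_S200 1, 2 and 3 (2.95). Ogn, the proteoglycan osteoglycin, had 2.78 to 4.23 CPM in the rich libraries, against 0.820 to 1.41 CPM in the poor ones (1.13). Fmod (0.92) and Foxc2 (0.70) overlapped. Col1a1, a fibrillar collagen chain chosen after its values were seen, had 3.16 to 5.78 CPM in the rich libraries, against 3.86 to 4.89 CPM in the poor ones (0.02), and its highest libraries were Control 3 at 7.08 and STET 3 at 6.20 CPM.

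No gene of the endothelium list (10 genes, median ratio 0.06) or the fenestrated endothelium list (4 of 5 past the filter, 0.02) separated the sets. Plvap, the diaphragm protein of fenestrated capillaries such as those of the choroid plexus, had 4.06, 4.53, 4.27 and 4.38 CPM in Control 2, STET 2, STET_S100 1 and STET_S100 2, against 4.22, 4.52, 4.17 and 4.26 CPM in STET_S100 3 and STET_S200 1, 2 and 3 (0.03). Among endothelial genes Slco1a4 had 0.52, Emcn 0.33, Cdh5 -0.20 and Ly6c1 0.15, all with overlap. Of 8 mural cell genes, Vtn, the adhesion protein vitronectin, was separated, with 33.7 to 41.1 CPM in the rich libraries, against 29.1 to 33.4 CPM in the poor ones (0.28). Among border macrophages Stab1 (0.24) and among microglia Tmem119 (0.29) were separated, each as 1 of 8 genes. Among all genes, 4.74% were likewise higher in all rich libraries and 4.08% were lower. Red blood cell genes overlapped in full, and Hbb-bs had 20.6 to 32.0 CPM in the rich libraries, against 18.4 to 29.1 CPM in the poor ones.

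**Figure D4:**
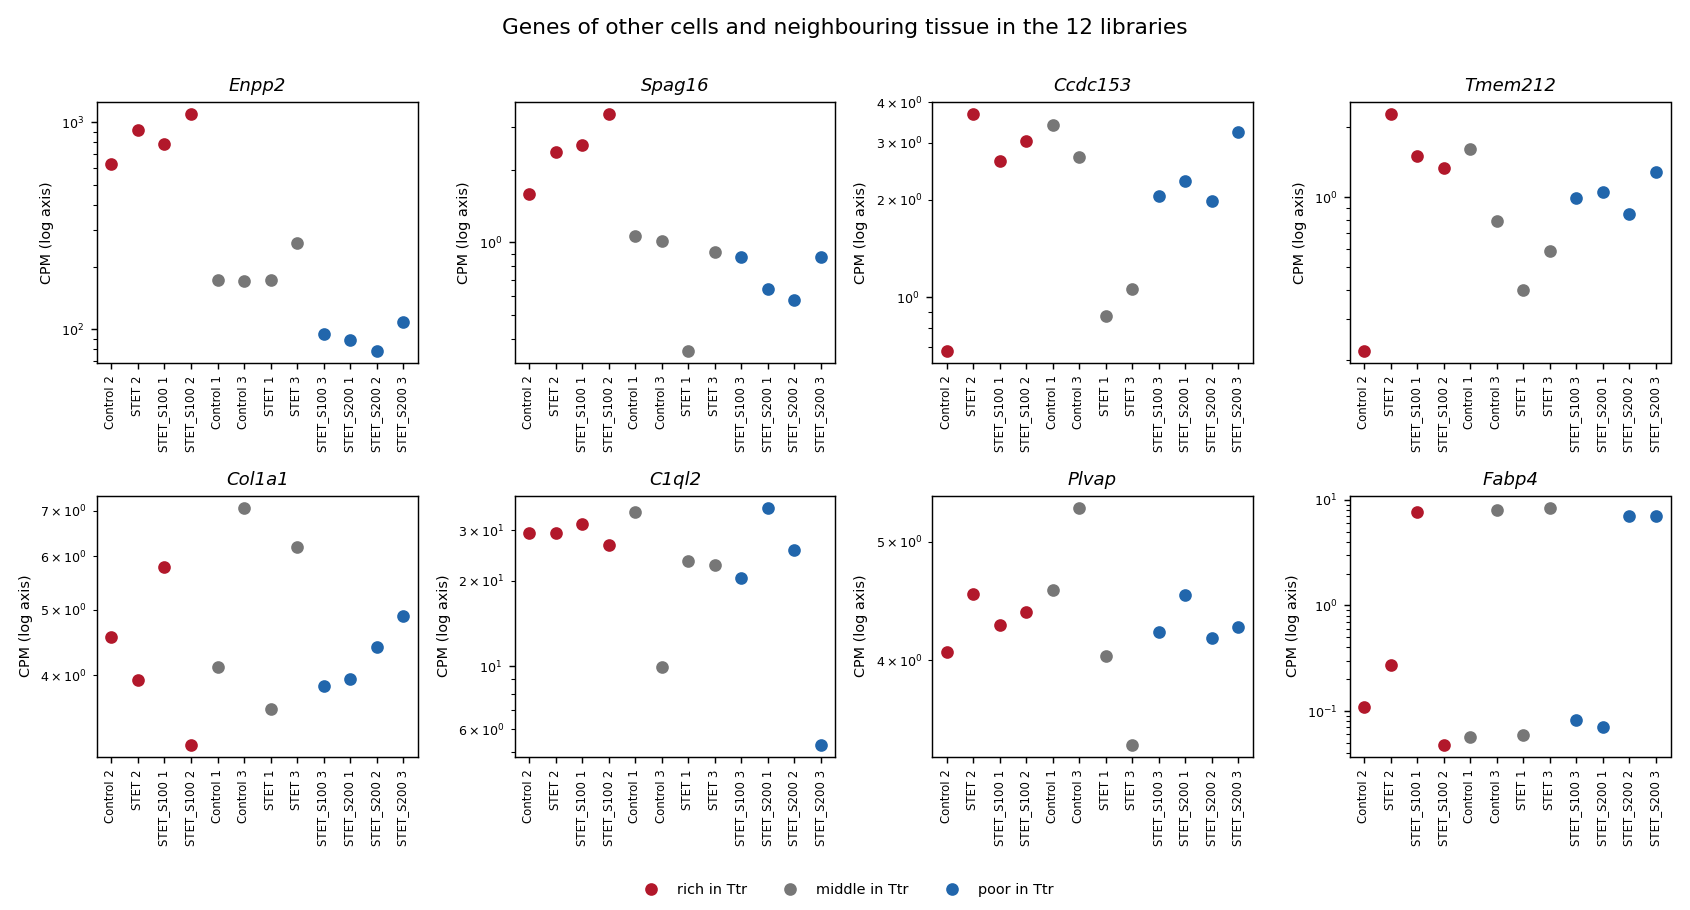
CPM on log axes, each panel with its own range, of Enpp2 (choroid plexus and oligodendrocytes), Spag16 (motile cilia), Ccdc153 and Tmem212 (ependyma), Col1a1 (fibroblasts), C1ql2 (dentate gyrus), Plvap (fenestrated endothelium) and Fabp4 (fat and vessels), with rich libraries left, middle centre and poor right. Enpp2 separates the sets, whereas Control 2 is the lowest of 12 for Ccdc153 at 0.682 CPM and Plvap spans 4.06 to 4.53 CPM in the rich libraries and 4.17 to 4.52 CPM in the poor ones.

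The markers of CA1 itself overlapped between the sets. None of 7 CA1 genes found in the file (of 8) separated the sets, and their summed level was 924 to 974 CPM in the rich libraries, against 952 to 1110 CPM in the poor ones. Fibcd1, a marker of CA1 pyramidal cells, had 317 to 360 CPM in the rich libraries, against 355 to 437 CPM in the poor ones (-0.18). Of 8 pan-neuronal genes, 2 were lower in all rich libraries, where 4.08% of all genes were. Snap25, a SNARE protein, had 1530 to 1610 CPM in the rich libraries, against 1620 to 1760 CPM in the poor ones (-0.11), and Slc17a7, the vesicular glutamate transporter, had 1200 to 1260 CPM in the rich libraries, against 1270 to 1350 CPM in the poor ones (-0.05). Oligodendrocyte and astrocyte lists had medians of -0.02 and 0.08 and no separated gene. Activity-regulated genes had a median of -0.06 with none of 10 separated, and Fos had 168 to 320 CPM in the rich libraries, against 217 to 281 CPM in the poor ones.

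Genes of neighbouring regions mostly overlapped, with exceptions. Of 8 dentate gyrus genes, 2 were higher in all rich libraries and 2 at least 2-fold higher, against 4.74% and 1.01% of all genes. In the dentate gyrus list, Dsp, a desmosomal protein of granule cells and of epithelia, had 7.30 to 8.47 CPM in the rich libraries, against 1.23 to 5.28 CPM in the poor ones (1.69). Lct, the lactase gene, had 1.61 to 2.26 CPM in the rich libraries, against 0.601 to 1.5 CPM in the poor ones (1.10). The granule cell genes C1ql2 (0.35) and Prox1 (0.20), of which Prox1 was named after its values were seen, overlapped: C1ql2 had 26.6 to 31.5 CPM in the rich libraries, against 20.5, 36.1, 25.6 and 5.30 CPM in STET_S100 3 and STET_S200 1, 2 and 3. STET_S200 3 and the middle library Control 3, at 9.92 CPM, were the lowest of the 12 for C1ql2. In the CA2 and CA3 list, Iyd had a ratio of 0.71 and was the 1 separated gene of 10, where 4.74% of all genes were higher in all rich libraries.

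Among more distant regions, 1 of 11 thalamus and habenula genes was higher in all rich libraries and 1 was lower. Of all genes, 4.74% were higher and 4.08% lower. Zic1, a zinc-finger factor also made in meninges, had 4.17 to 6.49 CPM in the rich libraries, against 2.07 to 2.21 CPM in the poor ones (1.22). Slc17a6 (0.35), the glutamate transporter of thalamic neurons, overlapped. Ppp1r1b, the striatal dopamine signalling protein DARPP-32, had 46.8, 56.2, 51.8 and 59.7 CPM in the rich libraries, against 34.7, 35.9, 35.2 and 35.9 CPM in the poor ones (0.60), while the dopamine receptor Drd1 (-0.20) and the adenosine receptor Adora2a (-0.17) of striatal neurons overlapped. In the basolateral amygdala list, 2 of 6 genes were lower in all rich libraries, where 4.08% of all genes were. They were Grp, a neuropeptide (-0.25), and Etv1 (-0.17). In the subiculum and neocortex list, 2 of 10 genes were higher in all rich libraries, where 4.74% of all genes were. They were Cux2 (0.24) and Tshz2 (0.23), although Tshz2 was highest in the middle library Control 1, at 111 CPM.

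Genes of peripheral tissue were high in libraries of both sets. Fabp4, a fatty-acid binding protein of fat and vessels, had 0.109, 0.275, 7.67 and 0.0479 CPM in Control 2, STET 2, STET_S100 1 and STET_S100 2, against 0.0827, 0.0713, 7.08 and 7.08 CPM in STET_S100 3 and STET_S200 1, 2 and 3. Alb, the liver albumin gene, was high in the same libraries, with 8.31 CPM in STET_S100 1, 7.77 in STET_S200 2 and 7.49 in STET_S200 3. Control 3 and STET 3 also carried Fabp4, at 8.09 and 8.46 CPM. Leaving out the 3 libraries of the 8 above 1 CPM of Fabp4 left 3 rich and 2 poor libraries, in which 237 genes were at least 2-fold higher, 180 of them shared with the 196, and the markers had a median ratio of 5.50. The fibroblast list then had 0.13 and the cilia list 0.40, with 7 genes at least 2-fold higher.

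The labelled comparisons contain this difference, since all 3 STET_S200 libraries were poor. Ttr averaged 15.8 ± 21.5 CPM in STET_S200, 1550 ± 1420 in STET_S100, 977 ± 1100 in STET and 528 ± 555 in Control (SD, n = 3 each). Within STET_S100 the libraries ranged from 12.2 to 2800 CPM. The log2 difference of STET_S200 against Control was -5.10 ± 2.01 (SE), and edgeR's quasi-likelihood test across all genes gave a Benjamini-Hochberg adjusted p of 0.828. Against STET_S100 it was -6.66 ± 2.14 (SE; adjusted p 0.956 in the same edgeR fit). STET_S100 against Control gave 1.56 ± 1.66 and STET against Control 0.89 ± 1.64 (SE; edgeR adjusted p 0.935 and 1.00). Clic6 gave -5.19 ± 2.20 for STET_S200 against Control (SE; edgeR adjusted p 0.828), and Ccdc153 gave 0.12 ± 0.64 (edgeR adjusted p 0.991).

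No gene passed an adjusted p of 0.05 in edgeR in any of the 4 comparisons (0%). At an unadjusted p under 0.05 there were 1154 genes for STET_S200 against Control, 1006 for STET_S100 against Control, 683 for STET against Control and 1014 for STET_S200 against STET_S100. Limma-voom called 0 genes in each, edgeR without the filter called 69, 42, 16 and 98 in that order, and DESeq2 called 4, 3, 1 and 5, and the 5 of STET_S200 against STET_S100 were Ttr, Clic6, Tmem72, Kcnj13 and Wdr86. All 5 belong to the choroid lists and were at least 2-fold higher in the rich libraries. Against Control, DESeq2 called Lpl, Igfbp5, Neurod2 and Sstr3 for STET_S200, Ndufb9, Arc and Sstr3 for STET_S100 and Gadd45g for STET. None of these DESeq2 calls against Control was in the choroid or cilia lists or at least 2-fold higher in the rich libraries. The edgeR calls without the filter held genes of both kinds. For STET_S200 against Control, Slc26a7 and Fam81b were at least 2-fold higher in the rich libraries, and Lpl and Igfbp5 were not. For STET_S200 against STET_S100, Crb3 and Iqub were, and Tgfbr3 and Piezo1 were not.

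Signs of the 196 genes in the labelled comparisons were largely set by how the genes were chosen. These comparisons use the libraries that defined the genes and share Control samples. By definition STET_S100 1 and 2 lay above all STET_S200 libraries. In STET_S200 against STET_S100, 0 of the 196 had a positive log2 difference (median -1.90). Against Control, STET_S200 gave 2 positive of 196 (median -1.09), STET_S100 gave 189 positive (0.86) and STET gave 157 positive (0.28). The counts are a description and no separate support. All 8 markers were negative for STET_S200 against Control, with a median of -5.13, while the 36 cilia-list genes had 14 positive and 22 negative (median -0.12). For STET_S200, the stimulation and the choroid content cannot be told apart, because no library of that group was rich or middle.

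**Figure D5:**
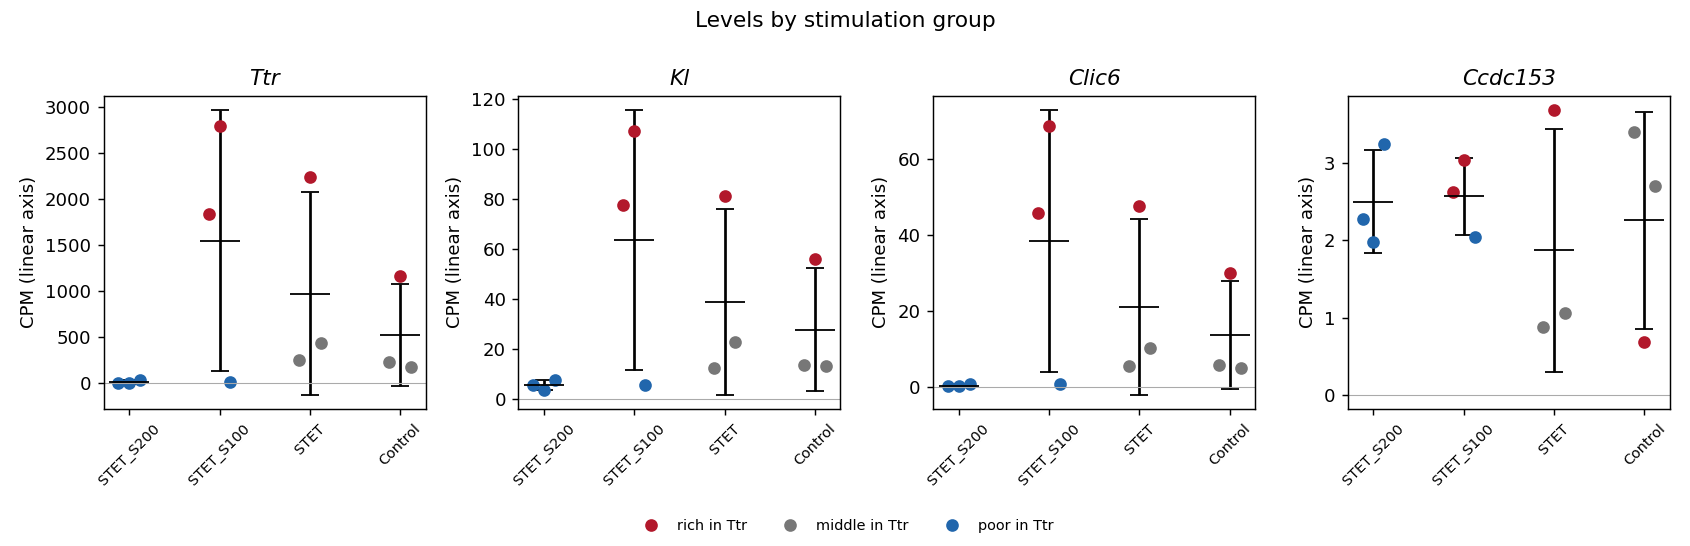
CPM on linear axes of Ttr, Kl, Clic6 and Ccdc153 by stimulation group, with each library as a point coloured by its Ttr set, the mean as a bar and the SD as error bars (n = 3 each). The 3 STET_S200 libraries have 1.73 to 40.6 CPM of Ttr, STET_S100 spans 12.2 to 2800 CPM, and Ccdc153 overlaps in all groups.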

How the data were processed

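Polyadenylated RNA was measured in 12 libraries, 3 for each of 4 groups taken from the labels. The authors deposited raw read counts per Ensembl gene for 55471 genes. The submitters' processing notes name limma, R 4.0.2, HTSeq 0.11.2, STAR 2.7.1a and Trimmomatic 0.39, without settings. The build, annotation and strand setting were not given in the sources used here. Overlapping and antisense genes are therefore uncertain. Symbols were matched for 99.4% of identifiers.

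Genes were kept with edgeR 4.0.16 filterByExpr (minimum count 10, total 15; 19492 genes) in R 4.3.3, and CPM used TMM factors of 0.986 to 1.016. Rich and poor sets were described with medians, ranges and non-overlap, without tests. Labelled groups were compared with edgeR's quasi-likelihood test in 1 fit over 12 libraries and Benjamini-Hochberg adjustment. The test was tried on simulated counts with the same spread for every gene, which does not cover genes as variable as Ttr. DESeq2 1.42.0, limma-voom (limma 3.58.1), other scalings, filters and left-out libraries were alternatives. Libraries of the same group differed by more than sampling noise (chi-square per degree of freedom 4.79 to 19.5), and p-values measure the spread between pooled libraries.

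The members, gene lists and tests were chosen with earlier results of these data known. Named genes were the 8 markers, the 20 highest and 10 lowest separated ratios at a mean log2 level of at least 0, and up to 6 members per choroid or cilia list (4 for other cells) by size of ratio; others are marked as chosen after their values were seen.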

Additional observations from a re-analysis of the deposited data

Results flagged for a closer look

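Within the sets of 4, list sums were examined for a library far from the others: its gap to the nearest library, relative to the whole range, exceeded Dixon's 95% critical value in 4 of 50 sums, and chance flags about 1 in 20. The ependymal and motile cilia sum was 171 CPM in Control 2, while the highest rich library had 230 CPM and the lowest poor library 176 CPM. The neuron sum was 8280 CPM in Control 2, while the lowest rich library had 7630 CPM. The subiculum and neocortex sum was 359 CPM in STET 2, while the lowest rich library had 348 CPM. The peripheral tissue sum was 21.8 CPM in STET_S100 1, while the lowest rich library had 1.17 CPM.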

How the results depend on the processing

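Of 131 alternative values for the counts and medians, 108 kept within their limits, 23 moved and 0 reversed. Of 465 values for 31 single genes, 427 kept within theirs, 38 moved and 0 reversed. With a pseudocount of 0.5 CPM, 120 genes were higher and 0 lower, the marker median was 4.41, 9 genes followed the order of Ttr, and the ratio within STET_S100 was 4.52, where settings for the last 2 were chosen after seeing the data; at 4-fold, 79 were higher, 0 lower and 8 followed Ttr. The number of lower genes was 0 at a mean count of at least 10, 1 with a ratio of means and 12 without the libraries above 1 CPM of Fabp4.

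Leaving out each library in turn gave 191 to 230 higher and 2 to 10 lower genes (10 without STET_S100 1, 4 without STET_S200 3), marker medians of 5.19 to 5.88, cilia-list medians of 0.30 to 0.55, 14 to 16 genes following Ttr and ratios within STET_S100 of 5.17 to 5.66. In edgeR with no filter, 69, 42, 16 and 98 genes were called (STET_S200, STET_S100 and STET against Control, then STET_S200 against STET_S100), and DESeq2 called 4, 3, 1 and 5. Leaving out a library gave 0 to 8 calls for STET_S200 against STET_S100 (8 without STET_S100 3) and 0 to 2 for STET_S200 against Control (2 without STET_S200 3). The cause of these shifts was not tested.

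With the replicate number as a block, 0 genes were called in each comparison. Whether libraries of the same number shared mice could not be decided from these values. Of 18 pairs of libraries with the same number, 7 had a correlation over 0.1 (range -0.287 to 0.344). Of 12 libraries, 7 correlated best with a library of their own number. The pairs among Control 2, STET 2 and STET_S100 2, which are 3 of the 4 rich libraries, had 0.242, 0.253 and 0.344, and their pairs with STET_S200 2 had -0.028, -0.0986 and -0.0514. Low poor levels rest on few reads, so ratios depend on the pseudocount: at 0.5 CPM they were 5.58 for Clic6, 4.71 for Kcnj13, 4.42 for Slc4a5, 4.40 for Folr1, 3.03 for Otx2 and Krt18, 4.98 for Tmem72, 4.07 for Cldn2, 3.80 for Kcne2, 4.15 for Mfrp and 4.69 for 1500015O10Rik. The separated genes nearest the 2-fold limit were E230013L22Rik and A430093F15Rik outside (1.00 each after rounding) and Slc29a4 (1.00) and Cab39l (1.01) inside.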

Other observations

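Ins2, an insulin gene that the choroid plexus epithelium of mice is known to transcribe, was counted in every rich library and in no poor one; it was chosen after its values were seen. It had 0.355, 0.435, 0.518 and 0.718 CPM in Control 2, STET 2, STET_S100 1 and STET_S100 2, against 0 reads in each of the 4 poor libraries, and 0.0547 to 0.159 CPM in the middle libraries. A count of 0 in the poor libraries allows up to 3 counts over the 4 together, or 0.0174 CPM, so the rich median of 0.477 CPM was at least 27.3-fold higher, for counting error only. Ins1, the paralogous insulin gene, had 0 reads in all 12 libraries.

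Values of 3 further genes outside the lists are given, chosen after they were seen to be at least 2-fold higher in the rich libraries. Crb3, an apical polarity protein of epithelia, had 0.546 to 1.68 CPM in the rich libraries, against 0.190 to 0.331 CPM in the poor ones (log2 ratio 2.00). Slc26a7, an anion transporter, had 0.846, 0.801, 1.28 and 1.29 CPM in Control 2, STET 2, STET_S100 1 and STET_S100 2, against 0.0888 to 0.273 CPM in the poor ones (1.81). Its middle libraries split, with 1.08 CPM in Control 1 and 1.20 in Control 3 beside 0.238 in STET 1 and 0.39 in STET 3. Zic4, a zinc-finger factor, had 0.504 to 0.934 CPM in the rich libraries, against 0.155 to 0.393 CPM in the poor ones (1.35).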
